A study of Mus musculus with 14 samples.

Results

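The genes described here make up the step that carries pyruvate into the citric acid cycle, the cycle itself, and the carriers and enzymes that move its products between mitochondrion and cytosol. They were 30 listed genes among the 18193 that the array annotation names by a probe set of 1 symbol and were found by symbol. All 30 had at least 1 probe set, and the probe set with the highest mean over the arrays stood for the gene. For a test a gene had to reach 50 on 3 or more arrays, as 29 of the 30 did, among 8682 genes tested. Pdk2, one of the kinases that switch off pyruvate dehydrogenase, did not: its intensities ran from 1.5 to 10.5 with the SETD5 virus and from 0.8 to 9.6 with the empty virus.

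The cells were 3T3-L1, a mouse preadipocyte line that turns into fat cells. One line carried a retrovirus for V5-tagged SETD5, driven by the weak viral LTR promoter, and the other carried the empty retrovirus. Both were drug-selected, taken to confluence and given insulin, dexamethasone and isobutylmethylxanthine, with insulin alone after 48 h. RNA from each line was measured on 1 Affymetrix array at each of 0, 12, 24, 36, 48, 96 and 192 h, 14 arrays in all. Each arm is thus 1 line, and SETD5 and any other difference between the lines cannot be told apart. Hours stand in for replicates, so the p-values measure only the spread between hours.

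Pyruvate dehydrogenase turns pyruvate into acetyl-CoA inside the mitochondrion, and its kinases switch it off by phosphorylation. Citrate synthase joins acetyl-CoA to oxaloacetate, and the cycle oxidises the product stepwise to yield reducing equivalents. In fat cells citrate also leaves the mitochondrion to supply acetyl-CoA for fatty acid synthesis, and pyruvate carboxylase refills the oxaloacetate that is lost.

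Differences between the arms are log2 of the SETD5 virus intensity over the empty virus intensity at the same hour, after adding 16 to both, given with limma's standard error (SE). A gene was called where limma's Benjamini-Hochberg adjusted p over all genes tested was under 0.05. Rose and fell are used of called differences. The early hours are 0, 12 and 24 h, and the late hours are 36, 48, 96 and 192 h. The Setd5 probe set ranged from 239.3 to 350.1 over the 7 SETD5 virus arrays and from 249.4 to 377.5 over the 7 empty virus arrays, with a late difference of 0.05 ± 0.08 (limma, adjusted p = 0.69). The paper reports higher Setd5 mRNA by qPCR in its SETD5-transduced lines than with the empty vector, and shows the tagged protein by immunoblot. Its insert was the mouse SETD5 coding sequence, and no source used here says whether this probe set measures a stretch within it. Over the 14 arrays, 88.4% to 93.8% of the genes tested reached 50. The ratio of 3′ to 5′ signal was 0.838 to 0.880 for Gapdh with the SETD5 virus and 0.820 to 0.909 with the empty virus, and for Actb 1.58 to 2.26 with the SETD5 virus and 1.57 to 2.51 with the empty virus.

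The members were lower with the SETD5 virus late in differentiation, and 14 of the 29 tested rose over time in the empty virus arm. At the late hours 10 of the 29 genes fell and 0 rose, which is 34.5% lower, against 4.56% lower and 7.43% higher over all genes tested. The median late difference was -0.41 over the 29 genes and 0.04 over all genes tested, and 25 of the 29 were negative. In 5 of the 29 genes, 17.2%, every late SETD5 virus intensity lay below every late empty virus intensity, against 2.63% over all genes tested. At the early hours 0 of the 29 were called by limma, against 0.00% lower and 0.0230% higher over all genes. There 0 of the 29 had an unadjusted limma p under 0.05, against 2.03% lower and 4.19% higher over all genes. The late count depended on single hours: it was 3 without the 0, 12 or 24 h pair of arrays, 20 without 36 h, 4 without 48 h, 2 without 96 h or 192 h, and 0 without hour as a block. Calls over all genes tested moved the same way, up without 36 h and down in each of the other fits. Without hour as a block, 1 of the 8682 genes tested was called. These swings are thus not particular to the members. The calls of Aco1 and Idh3a held with any 1 hour left out.

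The gap opened after 36 h. The median difference over the 29 genes was 0.12, 0.00, 0.03 and -0.01 at the 4 hours to 36 h, then -0.21 at 48 h, -0.51 at 96 h and -0.82 by 192 h. Over all genes tested it stayed between -0.0031 and 0.12. At 96 h 27 of the 29 genes were lower with the SETD5 virus, and all 12 citric acid cycle genes were lower at 48, 96 and 192 h.

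**Figure D1:**
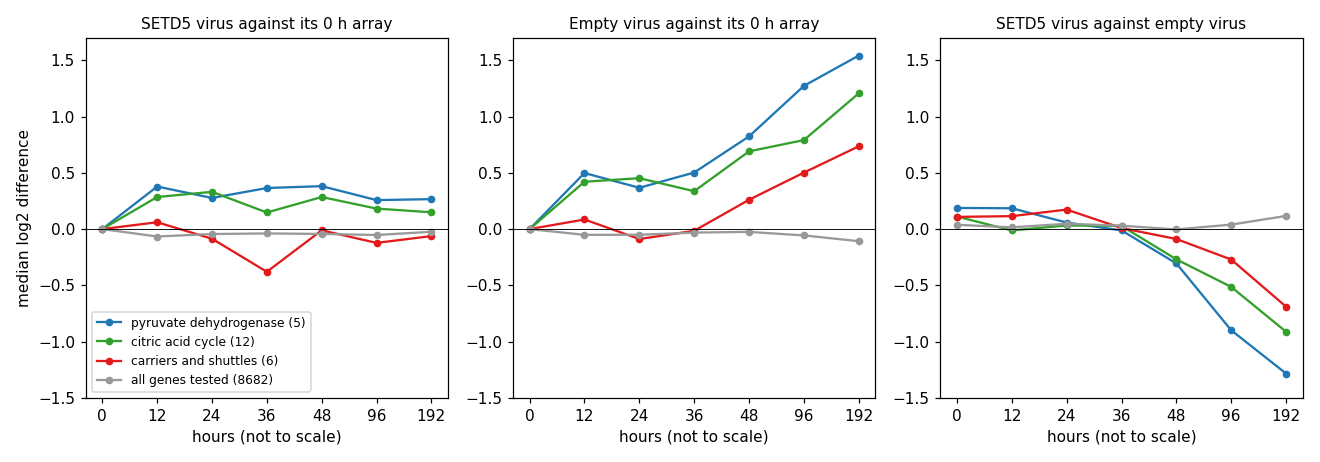
Median log2 difference (vertical axis) at each hour (horizontal axis, not to scale) for 3 role groups and for all genes tested, as each arm against its own 0 h array and as the SETD5 virus against the empty virus. The pyruvate dehydrogenase and citric acid cycle medians climb in the empty virus arm, to 1.54 and 1.21 at 192 h, and stand at 0.27 and 0.15 in the SETD5 virus arm.

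With 96 and 192 h alone as the late hours, 20 of the 29 genes fell and 0 rose, against 11.4% lower and 15.8% higher over all genes tested. The difference at 96 and 192 h was below that of the early hours in 19 of 29, and above it in 0, against 6.19% and 4.37% over all genes. Taken over all 4 late hours, late minus early, 0 were called, against 0.0115% in each direction over all genes. At limma's unadjusted p under 0.05, 15 of the 29 were lower and 0 higher, against 6.59% lower and 5.97% higher over all genes. The change from the early difference was called in 9, 9 and 12 genes without the 0, 12 and 24 h pair. Leaving out 96 or 192 h leaves 1 pair of arrays, with no spread between late hours of its own. At 96 h the median difference over the 29 genes was -0.51, and at 192 h it was -0.82. Pdhb, Dlat, Pdhx, Dld, Idh3a, Pcx, Slc25a1 and Slc25a10 were called in both tests with any 1 hour other than 96 or 192 h left out.

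The time course was tested as 96 and 192 h against 0, 12 and 24 h in each arm. In the SETD5 virus arm 0 of the 29 genes were called, against 0.0346% lower and 0.150% higher over all genes, with a median of 0.00. At limma's unadjusted p under 0.05, 2 of the 29 were lower and 0 higher, against 9.05% lower and 7.41% higher over all genes. In the empty virus arm 14 rose, which is 48.3%, and 2 fell, against 5.25% higher and 3.29% lower over all genes, with a median of 0.77. Without the 192 h arrays only 3 of those 16 calls were made. Scaling every array to a common median shifted the median of all genes in the time course by -0.19 in the SETD5 virus arm and by -0.17 in the empty virus arm, and left 11 members called in the empty virus arm.

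Fat cell markers were also lower late with the SETD5 virus, but not all of them followed the members over time. All 9 measured fat cell markers were lower at the late hours, 7 of them called, against 4.56% lower over all genes tested. Their summed intensity at the late hours ran from 4219.3 to 19612.2 with the SETD5 virus and from 5324.3 to 34418.4 with the empty virus. Over time in the SETD5 virus arm 5 of the 9 rose, against 0 of the 29 members and 0.150% higher over all genes tested. The difference for Fabp4 was -1.81 at 36 h and -0.54 at 192 h, and for Adipoq -2.44 at 48 h and -0.47 at 192 h. That of Pparg was instead -0.81 at 36 h and -2.56 at 192 h. Of 8 preadipocyte markers 2 rose and 0 fell at the late hours, against 7.43% higher and 4.56% lower over all genes tested. Their late sums were 20960.9 to 26127.3 with the SETD5 virus and 19585.8 to 21719.8 with the empty virus. In these bulk samples fewer fat cells and less RNA per cell cannot be told apart, and the part of the markers in the result was not tested. No marker of macrophages, endothelium, muscle or liver passed the filter, and none of their intensities exceeded 46.1 in SETD5 virus cells or 31.6 in empty virus cells.

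**Figure D2:**
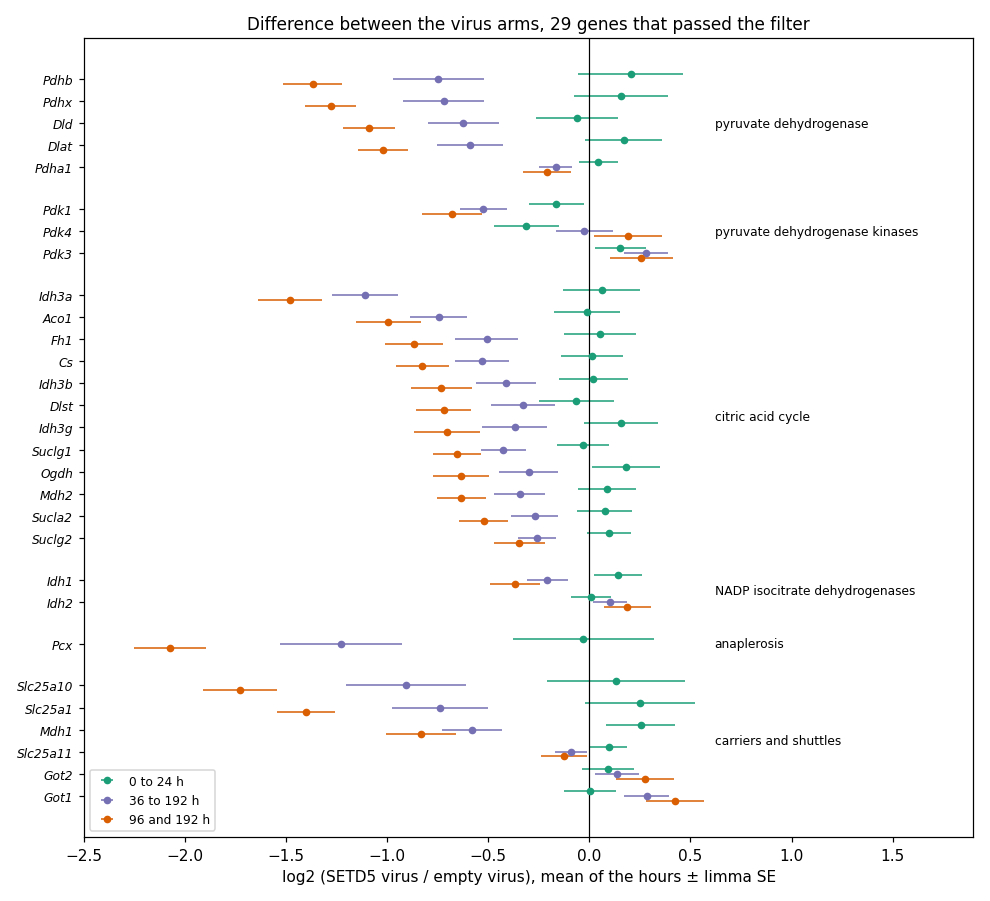
Log2 difference between the arms (horizontal axis, SETD5 virus over empty virus) for each gene, as the mean of the early hours, of the late hours and of 96 and 192 h, with bars for limma's SE. Early values lie near 0 for most genes, and 24 of 29 values at 96 and 192 h are negative.

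Of the 5 pyruvate dehydrogenase genes, 3 fell at the late hours and 4 at 96 and 192 h. Over all genes tested 4.56% and 11.4% fell. Dlat, the acetyltransferase core of the complex, had intensities of 208.7, 210.5, 237.9, 244.8, 225.7, 252.6 and 231.6 at 0, 12, 24, 36, 48, 96 and 192 h with the SETD5 virus, against 184.6, 178.5, 216.6, 247.4, 282.6, 468.5 and 550.2 with the empty virus. The SETD5 virus arm stayed within a narrow band, while the empty virus arm was highest at 96 and 192 h, and the late ranges overlapped through 36 h. Dlat fell by 0.59 at the late hours (SE 0.16, n = 4 hours, limma adjusted p = 0.0469). Pdhx, the component that holds the dihydrolipoamide dehydrogenase in the complex, had 69.6, 101.2, 87.7, 82.6, 88.3, 81 and 86.7 with the SETD5 virus, against 57, 87.1, 83.6, 83.4, 113.2, 193.3 and 264.7 with the empty virus. Again the arms were close to 36 h and the ranges overlapped there. Pdhx fell by 0.72 (SE 0.20, limma adjusted p = 0.0475).

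Dld, the dihydrolipoamide dehydrogenase that pyruvate dehydrogenase shares with the oxoglutarate complex, had 383.1, 518.7, 514.9, 562.3, 530.5, 461.6 and 475 with the SETD5 virus, against 394.5, 577.4, 513.4, 565.6, 659.7, 874.7 and 1179.3 with the empty virus. Its late ranges did not overlap, with only a small gap at 36 h, and it fell by 0.62 (SE 0.18, limma adjusted p = 0.0485). Pdhb, the beta subunit of the E1 enzyme, had 791.8, 830.6, 957.7, 1024.2, 1036.3, 958.2 and 983.5 with the SETD5 virus, against 693.3, 721.3, 817, 992.8, 1279.1, 2048.8 and 3125.1 with the empty virus. It was higher with the SETD5 virus up to 36 h and lower from 48 h on. Its late difference was -0.75 ± 0.23 (limma adjusted p = 0.0573), which was not called, and at 96 and 192 h it fell by 1.37 (2.58-fold, limma adjusted p = 0.000245).

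Pdha1, the alpha subunit of E1 that the kinases phosphorylate, differed little, with 1459.8 to 2210.9 over the SETD5 virus arrays and 1231 to 2506 over the empty virus arrays. Its difference was -0.17 ± 0.08 at the late hours and -0.21 ± 0.12 at 96 and 192 h (limma adjusted p = 0.221), and its other probe set gave -0.22 late. In the empty virus arm Pdhb rose by 1.75, Pdhx by 1.42, Dlat by 1.33 and Dld by 1.03 over time, whereas the value for Pdha1 was 0.24 (limma adjusted p = 0.510).

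**Figure D3:**
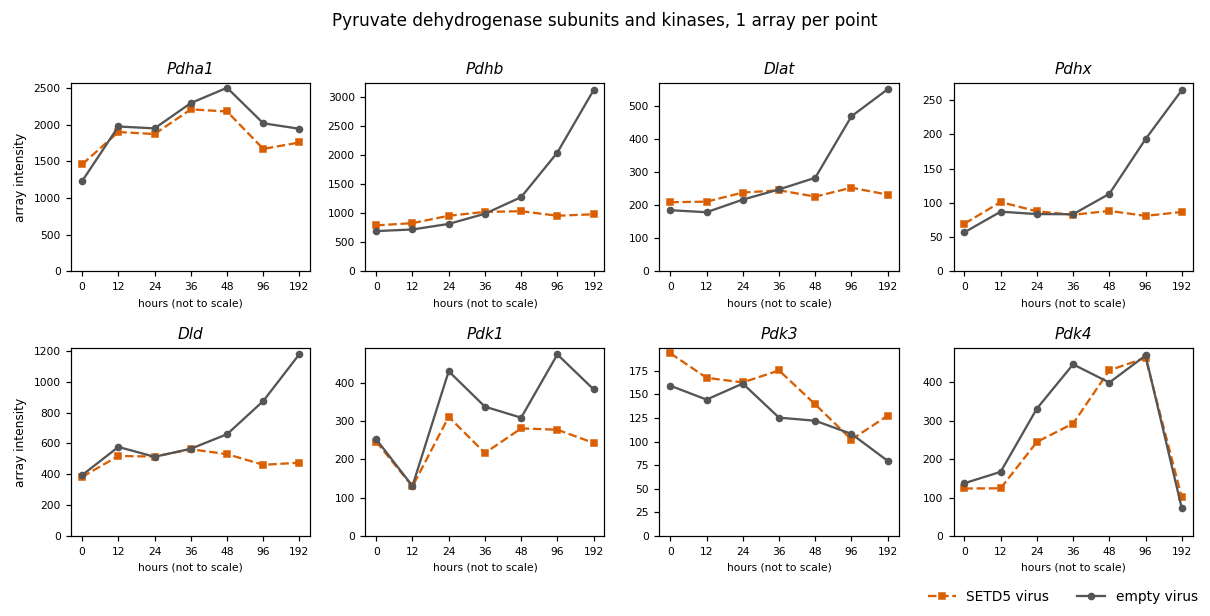
Intensity (vertical axis, from 0) at each hour (horizontal axis, not to scale) for 5 pyruvate dehydrogenase genes and 3 kinases, 1 array per point, with squares for the SETD5 virus and circles for the empty virus. The arms part after 36 h for Pdhb, Dlat, Pdhx and Dld, and run close together for Pdha1.

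The kinases did not share a pattern. Pdk1 had 246.2, 129.3, 310.7, 216.4, 280.6, 277.1 and 242.8 with the SETD5 virus, against 252.2, 130.4, 429.5, 337.3, 308.5, 473.3 and 382.4 with the empty virus. Both arms dipped at 12 h, and the late ranges did not overlap. Pdk1 fell by 0.52 at the late hours (SE 0.12, limma adjusted p = 0.0235) and by 0.68 at 96 and 192 h, but the change from the early difference was not called (-0.52, limma adjusted p = 0.108).

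Pdk4, the kinase known for its induction by fasting and glucocorticoids, had 123.8, 124.3, 245, 292.9, 431.4, 463.9 and 100.5 with the SETD5 virus, against 137.5, 167.2, 331.8, 447, 399.5, 470 and 72.4 with the empty virus. In both arms its highest value was at 96 h and its lowest at 192 h. Its late difference was -0.02 ± 0.14 (limma adjusted p = 0.923), and its sign turned with the hours used. Pdk3 had 193.6, 167.6, 162.7, 175.4, 139.4, 102.2 and 127.5 with the SETD5 virus, against 159.2, 144.5, 161.5, 125.4, 122.1, 108.2 and 79.6 with the empty virus. It differed by 0.28 ± 0.11 late (limma adjusted p = 0.119) and fell by 0.65 over time in the empty virus arm (limma adjusted p = 0.0353).

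All 12 genes of the citric acid cycle group had a negative late difference, 4 of them called, and 11 fell at 96 and 192 h. The shares that fell over all genes tested were 4.56% and 11.4%. The group takes in Aco1, the cytosolic aconitase. Idh3a, the catalytic subunit of the NAD-dependent isocitrate dehydrogenase, had 533.3, 1032.7, 719, 574.3, 743.6, 673.2 and 738.6 with the SETD5 virus, against 505.8, 1000.5, 687.4, 749.4, 1612.5, 1724.3 and 2311 with the empty virus. Both arms peaked alike at 12 h, and from 48 h the empty virus arm was the higher by far, with no overlap of the late ranges. Idh3a fell by 1.11 (2.16-fold, SE 0.16, limma adjusted p = 0.00713) and by 1.48 at 96 and 192 h. The other subunits of that enzyme, Idh3b and Idh3g, differed by -0.41 (limma adjusted p = 0.0934) and -0.37 (limma adjusted p = 0.146) at the late hours and fell by 0.73 and 0.70 at 96 and 192 h.

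Aco1 had 817.3, 1074.3, 777.4, 825.3, 1018.6, 1204.6 and 1103.3 with the SETD5 virus, against 829.2, 1079, 780.4, 1280.5, 1314.3, 1854.2 and 2884.4 with the empty virus. The arms nearly coincided to 24 h and were apart at every hour from 36 h on. Aco1 fell by 0.74 (1.67-fold, SE 0.14, limma adjusted p = 0.0130), and its second probe set that passed the filter also fell, by 0.91. Cs, citrate synthase, had 1206.4, 1461.9, 1433.8, 1242.4, 1202.2, 1044.1 and 1164.4 with the SETD5 virus, against 1063.9, 1518, 1516.5, 1319.4, 1573.2, 1649.4 and 2347.8 with the empty virus. Its late ranges did not overlap, and it fell by 0.53 (SE 0.13, limma adjusted p = 0.0336).

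Suclg1, the alpha subunit shared by both succinyl-CoA ligases, had 1042.8, 1185.7, 1031.8, 1158.2, 1243, 1239.5 and 1400.1 with the SETD5 virus, against 1012.2, 1210.9, 1108.8, 1224.4, 1547.2, 1766.1 and 2461.6 with the empty virus. The late ranges overlapped through 36 h, and Suclg1 fell by 0.43 (SE 0.11, limma adjusted p = 0.0395). Of its partner subunits, the ATP-forming Sucla2 fell by 0.52 at 96 and 192 h, and the GTP-forming Suclg2 differed by -0.35 ± 0.13 there (limma adjusted p = 0.0677). Fh1, fumarase, fell by 0.87 at 96 and 192 h, Dlst, the succinyltransferase of the oxoglutarate complex, by 0.72, Ogdh, its dehydrogenase, by 0.64, and Mdh2, the mitochondrial malate dehydrogenase, by 0.63. At the late hours as a whole none of these 4 was called, with Fh1 nearest (-0.51 ± 0.16, limma adjusted p = 0.0603). A second Dlst probe set differed by 0.38 late, the opposite sign, without being called.

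**Figure D4:**
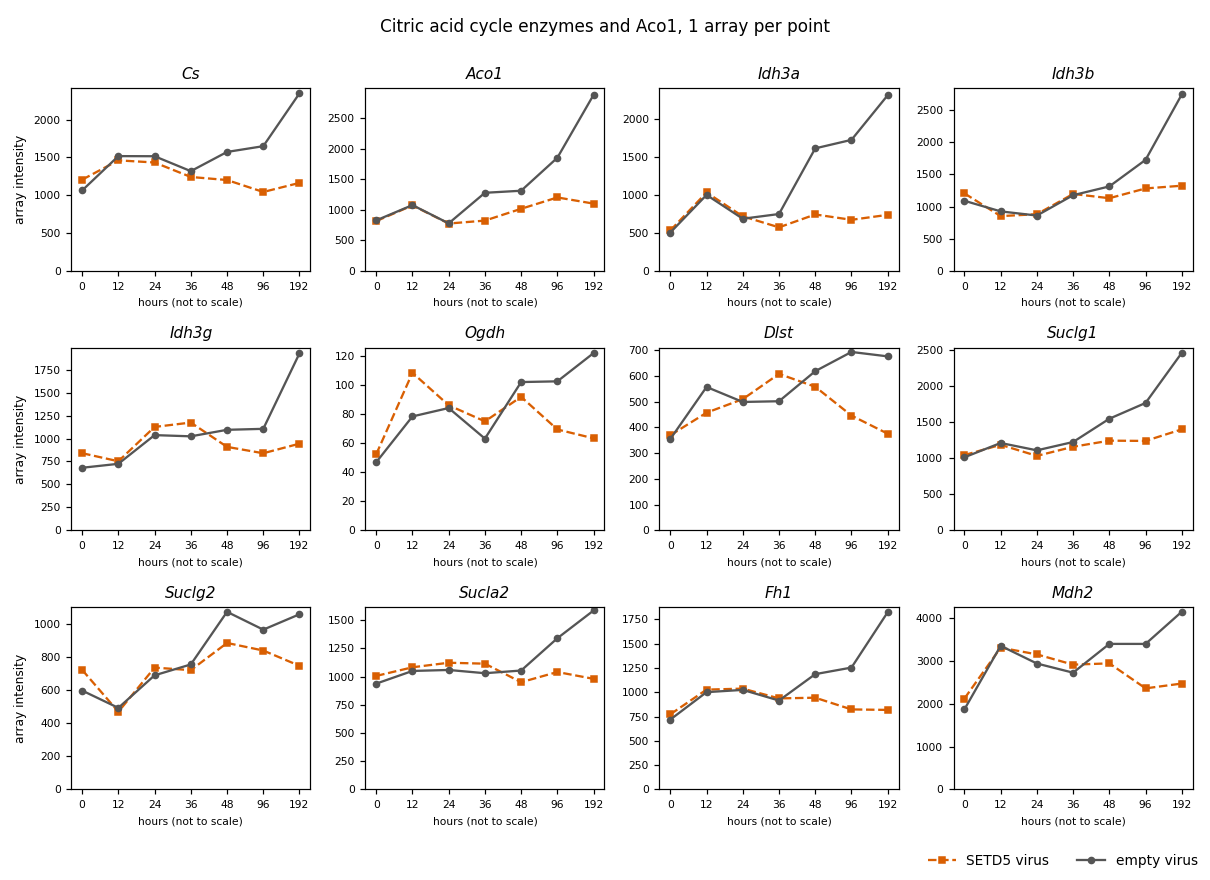
Intensity (vertical axis, from 0) at each hour (horizontal axis, not to scale) for the 12 genes of the citric acid cycle group, 1 array per point, with squares for the SETD5 virus and circles for the empty virus. At 48, 96 and 192 h the SETD5 virus point is the lower one in all 12 panels.

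The NADP-dependent isocitrate dehydrogenases were not called between the arms. Idh1, the cytosolic enzyme, had 2020.8, 1066.3, 1923.1, 3631.5, 3674.9, 2639.9 and 2237.7 with the SETD5 virus, against 1829.5, 989, 1698.1, 3508.2, 4070.8, 2955.5 and 3341.1 with the empty virus. Both arms were low at 12 h and high at 36 and 48 h, and the difference at 96 and 192 h was -0.37 ± 0.12 (limma adjusted p = 0.0502). Idh2, the mitochondrial enzyme, had 839.9, 1690, 1496.5, 1808.8, 1881.9, 2016.9 and 1017.1 with the SETD5 virus, against 836.7, 1888.7, 1324, 1855.4, 1792.8, 1752.5 and 899.5 with the empty virus. It was low at 0 and 192 h in both arms, with a late difference of 0.10 ± 0.08 (limma adjusted p = 0.441).

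Pcx, pyruvate carboxylase, had the largest late difference in size of the 29 genes. Its intensity was 105, 212.9, 460.1, 771.4, 908.9, 505.6 and 503.2 with the SETD5 virus, against 95.6, 221.4, 513.6, 881.5, 1365.7, 1644.8 and 2876 with the empty virus. Both arms went up at each hour to 48 h, with the SETD5 virus arm below the empty virus arm from 12 h on. At 96 and 192 h the SETD5 virus arm was lower than at 48 h and the empty virus arm was higher, and the late ranges overlapped only in that the SETD5 virus value at 48 h exceeded the empty virus value at 36 h. Pcx fell by 1.23 at the late hours (2.34-fold, SE 0.30, limma adjusted p = 0.0315) and by 2.07 at 96 and 192 h (4.21-fold, SE 0.18, limma adjusted p = 8.57e-05). Its change from the early difference was -2.04 (limma adjusted p = 0.00106). Over time it rose by 3.18 in the empty virus arm. In the SETD5 virus arm the value over time was 1.14, which was not called (limma adjusted p = 0.367). The array also carries control probe sets for Pcx, and the one at the 3′ end averaged 555 with the SETD5 virus and 1365 with the empty virus over the late hours.

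Among the carriers and shuttle enzymes 1 of 6 fell at the late hours and 3 of 6 at 96 and 192 h, against 4.56% and 11.4% over all genes tested. Mdh1, the cytosolic malate dehydrogenase, had 1673.9, 1871.4, 1616.8, 1286.7, 1635.9, 2200.5 and 1682.9 with the SETD5 virus, against 1577.5, 1392.9, 1348.9, 1852.9, 1803.8, 3042.5 and 3898.5 with the empty virus. It was the higher with the SETD5 virus to 24 h and the lower from 36 h, with overlapping late ranges, and it fell by 0.58 late (SE 0.15, limma adjusted p = 0.0352). Slc25a10, the dicarboxylate carrier, had 91.4, 88.6, 124, 64.1, 123.9, 110.6 and 195.1 with the SETD5 virus, against 79.3, 111, 83.2, 78.7, 117.2, 336.9 and 813.7 with the empty virus. Before 96 h both arms stayed within 64.1 to 124, and the late difference of -0.91 ± 0.30 was not called (limma adjusted p = 0.0726), but at 96 and 192 h it fell by 1.73 (3.31-fold, limma adjusted p = 0.000245).

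Slc25a1, the carrier that takes citrate out of the mitochondrion, had 125.6, 111.6, 96, 131.3, 133.3, 113.8 and 146.8 with the SETD5 virus, against 117.5, 93.1, 66.5, 115.5, 169.9, 292.7 and 461.8 with the empty virus. It stayed between 96 and 146.8 in the SETD5 virus arm. Its late difference of -0.74 ± 0.24 was not called (limma adjusted p = 0.0694), and it fell by 1.40 at 96 and 192 h (2.64-fold, limma adjusted p = 0.000223). The aspartate aminotransferases ran the other way without being called. Got1, the cytosolic one, had 271.6, 351.5, 248.4, 150.8, 185.7, 131 and 157.7 with the SETD5 virus, against 272.1, 350.7, 245.6, 140.5, 159.8, 121.1 and 87.7 with the empty virus. It fell by 1.34 over time in the empty virus arm, and the difference between the arms at 96 and 192 h was 0.42 ± 0.14 (limma adjusted p = 0.0517). Got2, the mitochondrial one, differed by 0.14 ± 0.11 late, and Slc25a11, the oxoglutarate carrier, by -0.09 ± 0.08.

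**Figure D5:**
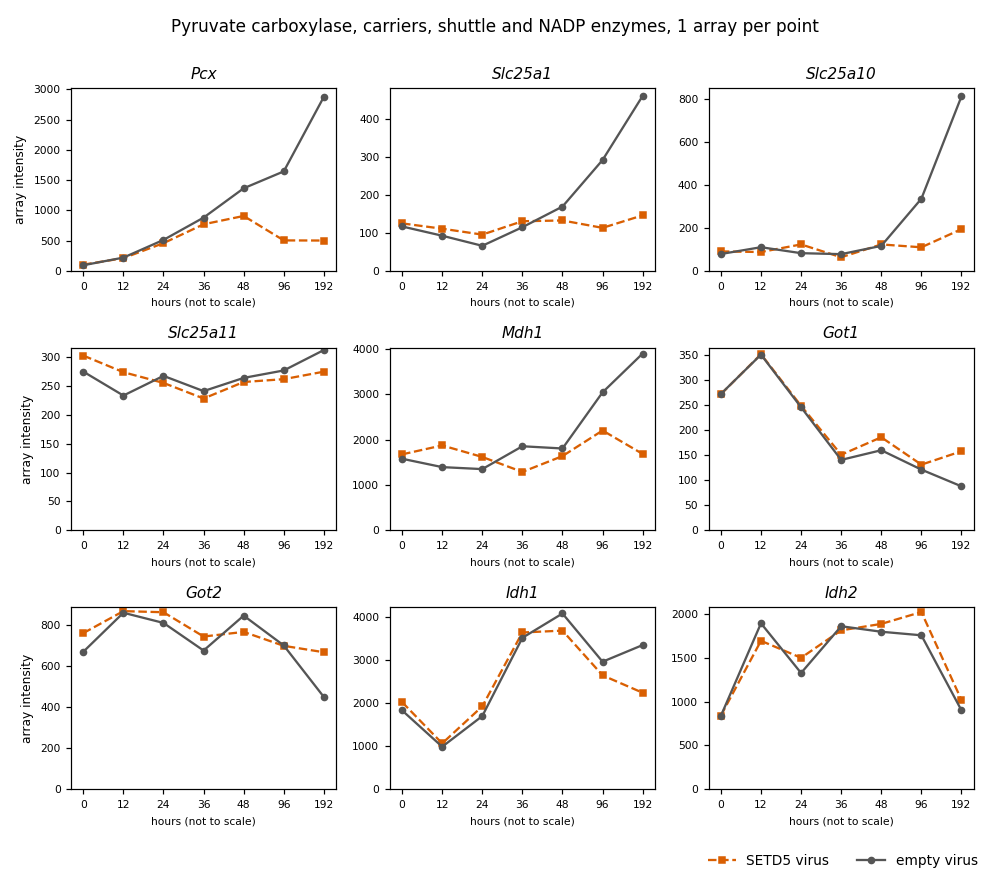
Intensity (vertical axis, from 0) at each hour (horizontal axis, not to scale) for Pcx, carriers, shuttle enzymes and NADP-dependent isocitrate dehydrogenases, 1 array per point, with squares for the SETD5 virus and circles for the empty virus. Pcx, Slc25a1, Slc25a10 and Mdh1 part by 96 h, and Got1 is lower at 36 to 192 h than at 0 to 24 h in both arms.

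Promoters are shown for Pcx and Slc25a1, which fell at 96 and 192 h, for Cs, the entry enzyme of the cycle, and for Got1, which did not fall. They are examples, and a link between motif and time course was not tested. Sequences are from RefSeq, build GRCm38.p6, 5′ to 3′ along the gene, 250 bases before to 50 after the start. Capitals mark matches on either strand to AGGTCA (nuclear receptor half-site), TNAAGGTCA (which contains it), the NRF1 core motif, CCAAT and GGGCGG (GC box).
Pcx (chr19:4510222-4510521, + strand): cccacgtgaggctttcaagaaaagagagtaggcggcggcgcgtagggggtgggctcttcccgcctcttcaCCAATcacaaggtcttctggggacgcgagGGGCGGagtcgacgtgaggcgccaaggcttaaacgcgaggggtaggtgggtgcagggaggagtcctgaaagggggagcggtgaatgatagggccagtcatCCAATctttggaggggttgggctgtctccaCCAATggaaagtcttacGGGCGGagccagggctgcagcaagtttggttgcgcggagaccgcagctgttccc
Slc25a1 (chr16:17928170-17928469, - strand): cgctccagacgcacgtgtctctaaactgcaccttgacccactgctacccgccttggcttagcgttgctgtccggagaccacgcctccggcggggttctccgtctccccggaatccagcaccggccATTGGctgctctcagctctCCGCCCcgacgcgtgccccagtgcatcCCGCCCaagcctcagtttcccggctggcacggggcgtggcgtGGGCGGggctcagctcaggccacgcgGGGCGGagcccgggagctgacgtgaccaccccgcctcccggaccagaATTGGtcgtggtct
Cs (chr10:128337477-128337776, + strand): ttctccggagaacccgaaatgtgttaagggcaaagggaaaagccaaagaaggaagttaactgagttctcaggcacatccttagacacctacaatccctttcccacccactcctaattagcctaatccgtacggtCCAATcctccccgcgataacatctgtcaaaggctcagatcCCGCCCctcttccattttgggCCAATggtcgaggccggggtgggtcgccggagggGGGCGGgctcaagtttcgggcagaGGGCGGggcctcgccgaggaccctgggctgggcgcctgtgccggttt
Got1 (chr19:43524556-43524855, - strand): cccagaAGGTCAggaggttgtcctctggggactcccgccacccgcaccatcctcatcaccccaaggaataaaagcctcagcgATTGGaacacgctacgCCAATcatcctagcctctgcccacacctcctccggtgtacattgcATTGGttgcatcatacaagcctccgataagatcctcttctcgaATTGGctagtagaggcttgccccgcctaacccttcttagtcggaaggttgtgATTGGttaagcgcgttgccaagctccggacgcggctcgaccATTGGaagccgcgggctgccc
The Pcx window shown, one of its 2, held 3 CCAAT and 2 GGGCGG matches, and its other window held 1 AGGTCA and 1 CCAAT. The Slc25a1 window held 2 CCAAT and 4 GGGCGG, the Cs window 2 and 3, and the Got1 window 6 CCAAT, no GGGCGG and 1 AGGTCA. Of the 30 genes 29 had an entry. CCAAT was found in at least 1 window of 65.5% of these genes, against 41.1% of 27025 genes with an entry, and GGGCGG in 69%, against 38.2%. The 27025 genes were not limited to those that passed the filter, and shares over the genes tested were not taken. AGGTCA was found in 24.1% against 18.1%, NRF1 in 6.9% (Dld and Sucla2) against 5.19%, and TNAAGGTCA in 0 of 29 genes against 1.43%. Over single windows of 300 bases the shares were 37.4% for CCAAT, 35.7% for GGGCGG, 16.3% for AGGTCA, 4.6% for NRF1 and 1.28% for TNAAGGTCA. The windows shown do not stand for the whole list. Among genes not called at 96 and 192 h, GGGCGG was found in Idh1, Idh2, Pdk3, Slc25a11 and Suclg2, and not in Pdha1, Pdk4, Got1 or Got2. Among genes that fell there and had an entry, Dld, Idh3b, Idh3g and Suclg1 had no GGGCGG, and the others had it. A match is a description of these letters and not of a bound site.

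Other probe sets of the members mostly had the same sign. Besides the main ones there were 36, of which 19 passed the filter, 18 of them with the sign of the main probe set in the late difference, and 4 fell (Cs, Aco1, Idh3a and Mdh1) while 0 rose. The main probe sets of Aco1 and Mdh1, and of Idh3b, Idh1 and Suclg2, are of kinds that can share probes with other transcripts.

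Neighbouring genes of the pathway were described from a list of 33, of which 26 passed the filter. At the late hours 5 fell, which is 19.2%, and 0 rose, against 4.56% lower and 7.43% higher over all genes tested. Their median late difference was -0.28. Gpd1, the cytosolic glycerol-3-phosphate dehydrogenase, fell by 1.47, Me1, the malic enzyme that yields NADPH, by 0.95, Mpc1, a subunit of the mitochondrial pyruvate carrier, by 0.77, and Slc25a5, an adenine nucleotide carrier, by 0.49 (limma adjusted p = 0.0418, 0.0491, 0.00972 and 0.0240). The succinate dehydrogenase genes Sdha, Sdhb, Sdhc and Sdhd, which complete the cycle, differed by -0.36, -0.38, -0.17 and -0.34 late, none called, and each fell at 96 and 192 h. At 96 and 192 h 16 of the 26 fell, 61.5%, and 2 rose, 7.69%, against 11.4% lower and 15.8% higher over all genes tested. The share that rose was thus below that of all genes. Those that rose were Pdp1, the phosphatase that switches pyruvate dehydrogenase back on, by 0.64 (limma adjusted p = 0.00369), and Slc25a12, an aspartate-glutamate carrier of the malate-aspartate shuttle, by 0.45 (limma adjusted p = 0.0310).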

How the data were processed

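Messenger RNA was measured on 14 Affymetrix Mouse Genome 430 2.0 arrays. The deposited values are linear intensities, made by the authors as an average difference per probe set with GeneChip Analysis Suite 5.0. On every array the mean left after trimming 2% at each end was 100, so the deposited intensities had been scaled to a common trimmed mean. Each virus and hour had 1 array. Of 45100 probe sets 34944 had 1 gene symbol, updated through Entrez numbers, and 64 controls were left out.

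Here 16 was added before log2. Linear models were fitted with limma 3.58.1 in R 4.3.3, two-sided. The virus fit for the early and late hours had hour as a block (5 residual degrees of freedom, 4.59 added by eBayes). The time fit had virus by window (8, with 2.76 added). The comparisons at 96 and 192 h alone came from a separate fit, also with hour as a block. It had its own residual spread, and the degrees of freedom above are not those of that fit. The scripts were tested on simulated data. The number of arrays limits the precision.

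The members and the lists were chosen with earlier results of these data known. Values at every hour were given for members called in the late or late-minus-early comparison, for the Pdk genes and for the 2 members of each role group with the largest late difference, and the 4 largest called late differences in each direction were named from the neighbouring genes. Other genes named with values, namely Got1, the succinate dehydrogenase genes, Pdp1 and Slc25a12, were chosen after their values were seen. Alternatives were other scalings, offsets, filters, probe sets, variance priors, windows, hours left out and no replicate block. Some neighbouring genes of the list are not reported here.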

Additional observations from a re-analysis of the deposited data

Results flagged for a closer look

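In 4 of 58 sets of 7 arrays, 1 hour stood apart from the rest of its arm by Dixon's criterion. Chance meets it in about 1 of 20 sets of independent values, but each set here is a time course, so that rate need not hold. Pdk1 at 12 h with the SETD5 virus was 129.3, against 216.4 for the nearest hour, and Suclg2 at 12 h with the SETD5 virus was 469.7, against 721.5. Pdha1 at 0 h with the empty virus was 1231, against 1945.8, and Got2 at 192 h with the empty virus was 450, against 670. Both arms were low for Pdk1 and Suclg2 at 12 h.

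In 19 of the 29 genes tested the SETD5 difference at 96 and 192 h was called as unlike that of the early hours. The call was by a limma test of the change itself, with adjusted p between 0.00106 and 0.0415. Over all genes tested 6.19% were lower and 4.37% higher. With all 4 late hours, late minus early, 0 of the 29 were called. None of the 19 calls held with no replicate block, and fewer held with no filter. The change on the log2 scale was largest for Pcx (-2.04), Slc25a1 (-1.65), Slc25a10 (-1.86). For the other subunits, enzymes and shuttle genes it was Pdhb (-1.57), Dlat (-1.19), Pdhx (-1.44), Dld (-1.03), Cs (-0.84), Aco1 (-0.98), Idh3a (-1.54), Idh3b (-0.75), Idh3g (-0.86), Ogdh (-0.82), Dlst (-0.66), Suclg1 (-0.63), Sucla2 (-0.60), Fh1 (-0.92), Mdh2 (-0.72), Mdh1 (-1.09). All 19 were negative.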

How the results depend on the processing

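The count of members called at the late hours was 10. It was 6 after quantile normalization, 2 with no filter, 20 with 96 and 192 h alone and 0 with no replicate block, and leaving out 1 hour gave 2 to 20. Calls over all genes tested moved the same way in each of these settings. With every array scaled to a common median the count of members was 14, while fewer genes were called over all genes tested. The early count was 0 throughout. The late-minus-early count was 0, with 0 to 1 when 1 hour was left out and 19 with 96 and 192 h alone. The time course in the SETD5 virus arm called 0, with 0 to 1 when 1 hour was left out and 1 against 12 and 24 h alone. In the empty virus arm it called 16, with 3 to 16 when 1 hour was left out and 4 for 36 to 192 h against 0 to 24 h.

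The alternatives for 96 and 192 h were chosen after seeing the data. Leaving out 96 or 192 h there leaves 1 pair of arrays, so counts from those fits lack a spread between late hours. There 20 members were called, with 10 to 25 when 1 hour was left out and 0 with no replicate block. For the change from the early hours 19 were called, with 8 to 21 when 1 hour was left out, 8 with no filter and 0 with no replicate block. The hour is the design's only pairing of the arms, and a fit without it puts the change over time into the error. The late difference of Pdk4 was 0.16 without 36 h and 0.19 at 96 and 192 h alone, and that of Got2 was -0.0023 without 192 h; over single hours left out they ran between -0.17 and 0.16 for Pdk4 and between -0.0023 and 0.23 for Got2. The cause was not tested. Over single genes 1137 values kept sign and side of the threshold, 225 were no longer called, 24 became called and 3 turned sign. With 1 array per virus and hour, intensities under 50 carry folds that depend partly on the offset.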
